A study of Homo sapiens with 2 samples.

Results

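The interleukin-1 (IL-1) family was examined in Ca9-22 cells, an oral squamous cell carcinoma line, with and without forced expression of PTHLH, the parathyroid hormone-like hormone. The group held 10 genes, namely the cytokines IL1A, IL1B, IL18, IL33 and IL36G, the antagonist IL1RN, and the receptor genes IL1R1, IL1R2, IL1RAP and IL1RL1, out of 19775 genes that could be named. Every probe set carrying 1 of these symbols was taken, which gave 22 of the 54675 probe sets (sets of short array probes whose signals are merged into a single intensity). The family was selected on the low log2 differences of IL1A and IL1B on these same arrays, so all values below, and those of IL1A and IL1B above all, are a description and not a test. Ca9-22 cells were infected with an empty vector or a PTHLH vector, both kinds were selected with the antibiotic blasticidin so that stably transduced cells remained, and 1 RNA sample of each kind was read on 1 Affymetrix U133 array. The vectors were lentiviral, and the promoter that drove PTHLH is not given in the sources used here. PTHLH itself was not analysed here, so its level on these arrays is no check of the labels. With 1 array per condition, no spread between cultures, SD or p-value can be given, and precision is limited by having so few arrays.

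IL-1 cytokines are alarm signals that epithelial cells keep in store and release on injury. IL-1 alpha and IL-1 beta, made from IL1A and IL1B, bind the receptor IL1R1, which recruits the shared partner IL1RAP and signals through MYD88 to NF-kB and AP-1. IL1RN occupies the same receptor without signalling, and IL1R2 is a decoy that binds IL-1 and does not signal. IL-33 acts through IL1RL1 and IL-36 gamma through IL1RL2, both paired with IL1RAP, whereas IL-18 has its own receptor pair. Squamous keratinocytes are a known source of IL-1 alpha, and IL-1 beta, IL-18 and the IL-36 cytokines are processed by proteases before they are active.

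IL1A and IL1B lie next to each other in the genome, both are read from the minus strand, and they were the members that moved. The 250 bases before their transcription starts are shown because both genes were lower together. They are from RefSeq on GRCh38.p14, given 5′ to 3′ in the direction of transcription, at chr2:112784494-112784743 for IL1A (the first of its 2 listed starts) and chr2:112836780-112837029 for IL1B. Capitals mark matches, on either strand, to the letters of AP-1 (TGANTCA), the cAMP response element core (TGACG), C/EBP (TTNNGNAA), NF-kB (GGG, any 5 bases, CC), the TATA box (TATAAA) and RUNX (TGTGGT).
IL1A: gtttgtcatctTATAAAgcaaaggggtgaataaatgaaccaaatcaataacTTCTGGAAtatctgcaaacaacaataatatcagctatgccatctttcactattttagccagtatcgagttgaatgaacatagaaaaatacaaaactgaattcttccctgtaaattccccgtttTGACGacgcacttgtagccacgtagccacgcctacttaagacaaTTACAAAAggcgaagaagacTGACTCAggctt
IL1B: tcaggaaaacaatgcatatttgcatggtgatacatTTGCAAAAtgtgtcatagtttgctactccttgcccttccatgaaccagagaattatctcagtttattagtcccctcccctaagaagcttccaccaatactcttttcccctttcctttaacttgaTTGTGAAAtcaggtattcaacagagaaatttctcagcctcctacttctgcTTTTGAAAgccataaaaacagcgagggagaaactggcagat
The IL1A window held an AP-1 match that begins 12 bases before the start and a cAMP response element core that begins 76 bases before it. It also held 2 C/EBP matches, at 199 and 32 bases before the start, and TATA letters at 239. AP-1 letters occur in 6.57%, the cAMP core in 21.2% and TATA letters in 10.7% of 35116 promoter windows of this length. The IL1B window held 3 C/EBP matches, at 215, 91 and 41 bases before the start, and C/EBP letters occur in 33.2% of windows. Neither window shown had NF-kB letters, which occur in 54.4% of windows, or RUNX letters, which occur in 11%. Across the 9 members with a listed promoter, C/EBP letters were found for 6, TATA letters for 5, NF-kB and RUNX letters for 4 each, AP-1 letters for 3 (IL1A, IL1RN and IL1RL1) and the cAMP core for 1 (IL1A). These members have 18 windows in all, up to 4 each, whereas the shares above are per single window. A match describes letters in a short window and is not a bound site.

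**Figure D1:**
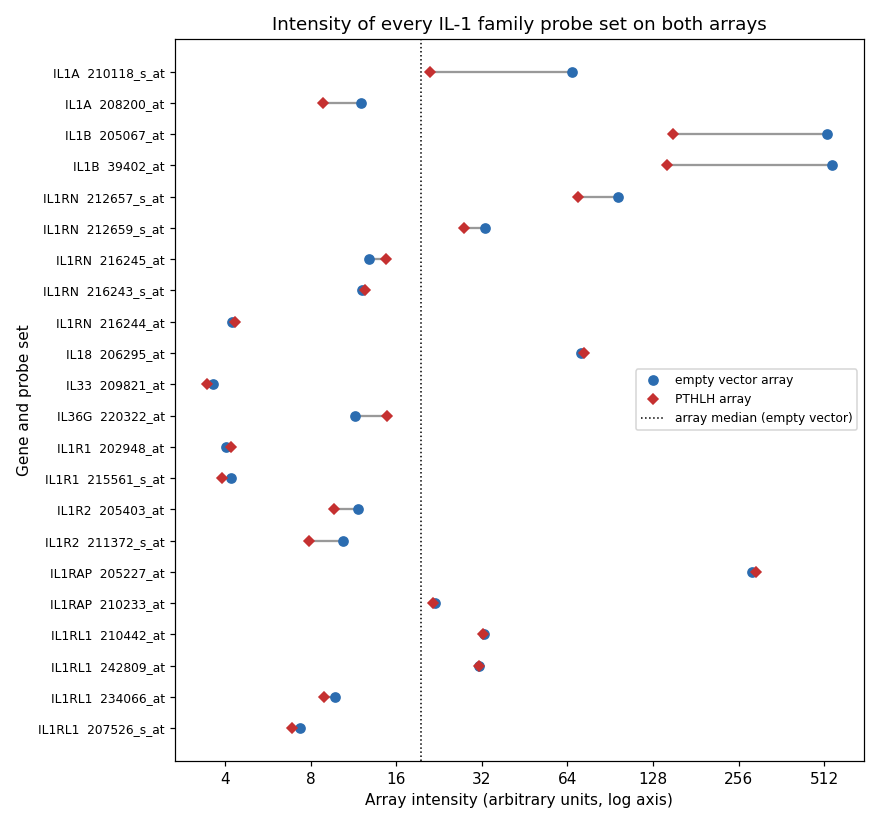
Intensity in arbitrary units (log axis) of all 22 IL-1 family probe sets, with the empty vector array as blue circles, the PTHLH array as red diamonds and the median of the empty vector array (19.5) as a dotted line. Both IL1B probe sets go from 525 and 546 to 151 and 144, the brighter IL1A probe set goes from 66.6 to 21.0, and most other pairs of points nearly overlap.

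The main cytokines of the family were the ones that differed. IL1B, by its first probe set, had an intensity of 525 with the empty vector and 151 with PTHLH, which is 3.49-fold lower and a log2 difference (PTHLH minus empty vector) of -1.80. Its second probe set went from 546 to 144, 3.80-fold lower, a log2 difference of -1.93. The log2 differences of the IL1B pair were 0.12 apart, and both probe sets were far above the array medians of 19.5 and 19.4. IL1B thus stood at percentile 94.8 of all intensities in control cells and at percentile 83.7 in PTHLH cells by the first probe set, well above the median in both.

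IL1A was lower by both of its probe sets, but by different amounts. The brighter one went from 66.6 to 21.0, 3.18-fold lower, a log2 difference of -1.67, which took IL1A from percentile 72.8 to percentile 51.8 of the array. The dimmer one lay below both medians and went from 12.1 to 8.87, a log2 difference of -0.44. The pair lay 1.23 apart. The SD of a single log2 difference was estimated from the gap between 2 probe sets of a gene, divided by the square root of 2. It was 0.25 over 2298 genes whose brighter probe set lay above both medians and whose next lay below both. The SD of the gap itself is larger. Dim second probe sets of lower genes were often near 0. Of 107 genes at least 1.5-fold lower by a bright probe set and with a dim second one, the second was below 0 in 63 and itself 1.5-fold lower in 10, with a median of -0.11. Among the 7617 probe sets within 0.5 log2 units of the level of the dim IL1A probe set, 4.08% were at least as low. The size of the IL1A difference therefore rests on 1 probe set, whereas its direction was shared by both.

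Of the 10 members, represented by the brightest probe set, IL1A and IL1B were at least 1.5-fold lower on the PTHLH array and none was at least 1.5-fold higher. Over all genes, 3.52% were lower and 1.97% were higher by the same measure, and because IL1A and IL1B prompted the list, nothing is read from its count. By single probe sets, 3 of 22 were lower, against 2.78% of all named probe sets, and none was higher. Among the 10 probe sets at or above an array median the same 3 were lower, against a background of 4.1% lower and 2.85% higher in that range, and 2% of all named probe sets were higher. IL1A and IL1B were also past 2-fold, which 0.733% of genes were in the lower and 0.182% in the higher direction. The median log2 difference over the 10 members was -0.05, against 0 over all genes. Over the other 8 members it was 0.01, and their 18 probe sets lay between -0.46 and 0.37. For comparison, the central 90% of all genes ran from -0.50 to 0.44.

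**Figure D2:**
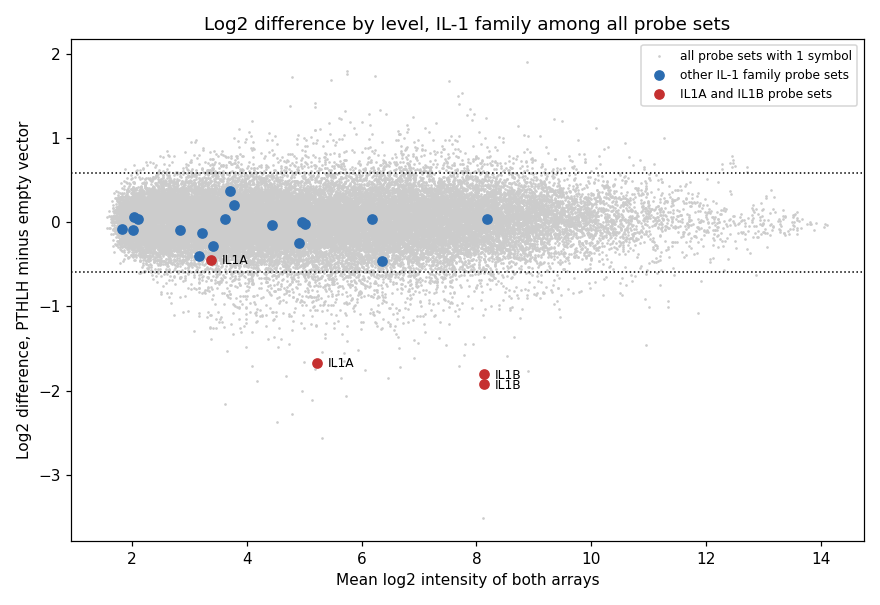
Log2 difference (PTHLH minus empty vector) against the mean log2 intensity of both arrays for all named probe sets (grey), the 18 probe sets of the other IL-1 family members (blue) and the 4 of IL1A and IL1B (red), with dotted lines at 1.5-fold. The IL1B pair and 1 IL1A probe set lie at the lower edge of the cloud, and the remaining members lie between the dotted lines.

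The antagonist IL1RN was lower by its bright probe sets, within 1.5-fold. Its brightest probe set went from 96.1 to 69.8, a log2 difference of -0.46, and the next from 32.8 to 27.6, a log2 difference of -0.25. The 3 dim ones, all below both medians, had log2 differences of 0.20, 0.04 and 0.04, so the median over its 5 probe sets was 0.04. Compared on the same arrays by the brightest probe set of each gene, subtracting the log2 difference of IL1RN from those of IL1B and IL1A left -1.34 and -1.21. These gaps depend on the probe sets chosen, since the IL1RN value used, -0.46, was the lowest of its 5.

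The other cytokines of the group differed little. IL18, which epithelial cells hold as an inactive precursor, was read at 71.2 and 73.3 on the empty vector and PTHLH arrays, a log2 difference of 0.04. IL36G, a cytokine of inflamed squamous epithelium, was read at 11.5 and 14.8, a log2 difference of 0.37, the highest among the members, although both values lay below the medians. IL33, a nuclear alarm cytokine, was near the bottom of both arrays at 3.63 and 3.45. IL18, IL36G and IL33 have 1 probe set each, so no second reading stands beside them.

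Among the receptors, the shared subunit was bright and nearly equal on both arrays. IL1RAP was read at 286 and 294 by its brighter probe set, a log2 difference of 0.04, and at 21.9 and 21.5 by the other. IL1R1, the signalling receptor for both IL-1 cytokines, was read at 4.02 and 4.19 by one probe set and at 4.19 and 3.92 by the other, between percentiles 3.28 and 5.58 of the arrays. These values are too low to tell a difference in IL1R1, and a dim probe set does not show that a transcript is absent. The decoy IL1R2 was lower by both probe sets, from 11.8 to 9.66 and from 10.4 to 7.87, log2 differences of -0.28 and -0.40, all below the medians. IL1RL1, the receptor for IL-33, had 4 probe sets with log2 differences between -0.13 and 0, of which 1 held the identical value of 31.3 on both arrays. Taking all members, 6 had a probe set at or above an array median and 4 (IL33, IL36G, IL1R1 and IL1R2) had none.

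Most of the family sits in gene clusters on chromosome 2, which allows neighbours to be compared. In the ligand cluster, in the order IL1A, IL1B, IL37, IL36G, IL36A, IL36B, IL36RN, IL1F10 and IL1RN, IL1A and IL1B were at least 1.5-fold lower, and the other 7 lay between -0.46 (IL1RN) and 0.37 (IL36G). The next gene beyond IL1A outside the family, CKAP2L, which encodes a mitotic spindle protein, was read at 23.9 and 28.7, a log2 difference of 0.27. Beyond IL1RN, PSD4 had a log2 difference of 0.12 by its brightest probe set, and its 3 probe sets lay between -0.23 and 0.12. IL37, an anti-inflammatory family member, was read at 42.0 and 46.1 by its brighter probe set, a log2 difference of 0.14. Its other probe set was dim, at 5.33 and 4.99, a log2 difference of -0.10. In the receptor cluster, which runs IL1R2, IL1R1, IL1RL2, IL1RL1, IL18R1 and IL18RAP, all 6 genes lay between -0.28 and 0.06. IL1RL2 and IL18R1 held identical dim values on both arrays, 10.3 for IL1RL2 and 6.54 for IL18R1. Identical values were not rare, since 3367 probe sets had the same value on both arrays. By the brightest probe set, the family genes IL1RN (-0.46), IL1R2 (-0.28), IL18RAP (-0.28), IL1F10 (-0.12), IL36RN (-0.12) and IL1RL1 (-0.02) were also below 0, within 1.5-fold.

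**Figure D3:**
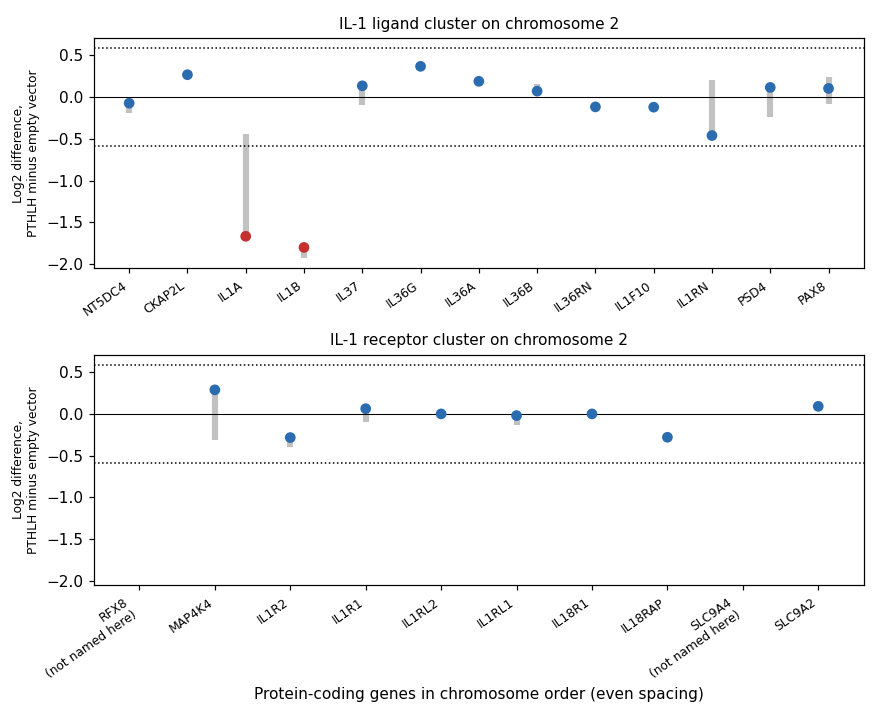
Log2 difference (PTHLH minus empty vector) of each protein-coding gene in the IL-1 ligand cluster (top) and receptor cluster (bottom) with the nearest genes on either side, in chromosome order at even spacing. Points are the brightest probe set (red if past 1.5-fold), grey bars the range over a gene's probe sets and dotted lines 1.5-fold, and IL1A (-1.67) and IL1B (-1.80) alone lie below the lower line.

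Outside the 10 members, 12 further ligands, receptors and inhibitors of the family were measured. SIGIRR, a receptor-like inhibitor of IL-1 and Toll-like receptor signalling, was past 1.5-fold in the lower direction, and no gene was in the higher one, against 3.52% of all genes lower and 1.97% higher. SIGIRR was read at 372 with the empty vector and 197 with PTHLH, a log2 difference of -0.92, and its other probe set went from 151 to 81.4, a log2 difference of -0.89. Both readings of SIGIRR were bright and close to each other. IL18BP, the soluble inhibitor of IL-18, was read at 45.2 and 47.7, with log2 differences between -0.27 and 0.08 over 3 probe sets. The median over the 12 genes was 0.04.

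Of 24 measured genes of the inflammasome and of IL-1 processing and release, none was 1.5-fold changed in either direction and the median was -0.07. CASP1, the protease that matures IL-1 beta and IL-18, was read at 204 and 172, a log2 difference of -0.25. All 5 of its probe sets were above the medians and below 0, between -0.64 and -0.18, so 1 of them was past 1.5-fold. Of 25 measured genes of IL-1 receptor signalling, NFKB1 was at least 1.5-fold higher, none was lower and the median was -0.09, with 1.97% of all genes higher and 3.52% lower. NFKB1, which encodes the p105 and p50 NF-kB subunit, was read at 80.4 and 137, 1.70-fold higher, by its only probe set. MYD88, the adaptor next to the receptor, was read at 510 and 485, a log2 difference of -0.07.

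The measured genes among those that IL-1 is known to induce in epithelial cells mostly lay near 0. Of 36 listed, CSF2, BIRC3, ZC3H12A, SERPINB2, DEFB4A, SAA1 and SAA2 had no probe set with 1 symbol and are not covered. Of 29 measured, 2 were at least 1.5-fold lower, none was higher, 15 were below 0 and 14 above it, and the median was -0.03, against 3.52% of all genes lower and 1.97% higher. With a pseudocount of 16 added before log2, none of the 29 was lower. The lower ones were the prostaglandin synthase PTGS2 and the gelatinase MMP9. PTGS2 went from 23.2 to 10.9, a log2 difference of -1.09, and MMP9 from 29.4 to 19.2, a log2 difference of -0.61. Both were dim and lay above the median on the empty vector array only, so they were named through the array where they were higher. A dimmer PTGS2 probe set had a log2 difference of -0.24. The neutrophil chemokine CXCL8 was read at 13.1 and 17.6 and the cytokine IL6 at 15.8 and 14.6, all below the medians. Of the 29 genes, 15 lay below both medians, where few probe sets pass 1.5-fold (1.03% lower and 0.876% higher over all named dim probe sets), so a difference in them would be hard to detect.

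Of 22 transcription factors known from IL1A and IL1B regulation, 5 were at least 1.5-fold lower, 1 was higher and 16 were below 0, with a median of -0.15, against 3.52% of all genes lower and 1.97% higher. The lower ones numbered 3 by the median of a gene's probe sets and 3 without x and s probe sets, those that can bind several transcripts. The AP-1 subunit JUN was read at 650 and 252, a log2 difference of -1.37, with its 4 probe sets between -1.56 and -0.42. JUNB went from 773 to 452, a log2 difference of -0.77, and FOS from 20.7 to 13, a log2 difference of -0.67, with 1 probe set each. FOS was dim, above the median on the empty vector array only. ATF3, a stress-induced factor, went from 137 to 59.0, a log2 difference of -1.21, but its other probe sets had 0.01 and -0.01. STAT3 went from 489 to 310, a log2 difference of -0.66, with other probe sets from -0.61 to 0.29. NFKB1, given above, was the higher one. These lists were chosen with earlier results of the same arrays known, and the AP-1 values had been seen, so their counts are not independent of one another or of the choice.

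**Figure D4:**
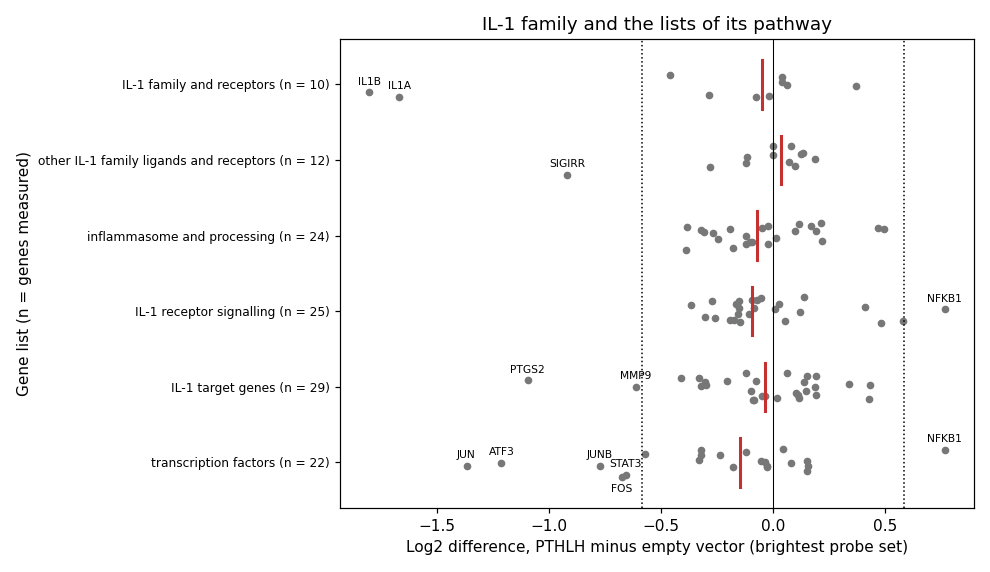
Log2 difference (PTHLH minus empty vector, brightest probe set) of each measured gene in the IL-1 family and in 5 lists of its pathway, with the median of each list in red and 1.5-fold as dotted lines. Genes past 1.5-fold are named, and the medians all lie between -0.15 and 0.04.

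IL-1 beta is best known from monocytes and macrophages, so markers of other cell types were read on the same arrays. Over all genes, 3.52% were at least 1.5-fold lower and 1.97% higher. At those shares a list this short would hold few such genes or none, so nothing is read from the marker counts. Of 9 measured monocyte and macrophage markers, none was 1.5-fold changed, 4 were at or above an array median, and their summed intensity was 175 on both arrays. PTPRC (7.05 and 7.84), CD14 (9.81 and 11.7), LYZ (8.28 and 9.49), CD163 (11.7 and 12.8) and TYROBP (8.73 and 7.10) lay below both medians. CSF1R (37.2 and 31.7), ITGAM (28.2 and 24.1), AIF1 (39.8 and 43.5) and FCER1G (24.1 and 26.8) lay above both. All 5 measured squamous markers were above the medians and within 1.5-fold by their brightest probe sets. KRT5 (7823 and 10228), KRT14 (2186 and 2223) and DSG3 (390 and 447) were higher on the PTHLH array. CDH1 (1567 and 1399) and EPCAM (1136 and 1093) were lower on it. None of 5 endothelial and 5 lymphocyte markers measured was past 1.5-fold. Of 8 fibroblast markers, FAP, a dim gene, was 1.5-fold higher (8.82 and 13.4). The summed intensity went from 2560 to 1780, mostly through the brightest COL1A1 probe set (2437 and 1652, a log2 difference of -0.56). The other COL1A1 probe sets were far dimmer, at 102 or less, with log2 differences of -0.007, -0.52, -0.66 and 0. The fall in the sum thus rests on 1 probe set. The part of the COL1A1 difference in the values of IL1A and IL1B was not tested. In a bulk culture, fewer cells that express a gene and less RNA per cell cannot be told apart.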

How the data were processed

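Biotin-labelled RNA of empty vector and PTHLH vector Ca9-22 cells was read on Affymetrix U133 arrays, 1 for each condition. The deposited file holds linear intensities that the authors had already summarised by probe set. How they corrected background, normalized and merged probes is not given in the sources used here. Samples were grouped by the characteristics in the labels. The description field, which names another cell line (CX-1) and gene (RAB3C), was set aside. Log2 intensities, without a pseudocount, were subtracted as PTHLH minus empty vector. Probe sets were named through the platform annotation, with 41043 of 41097 single-symbol probe sets updated by gene identifier through GRCh38.p14. The 1801 with several symbols and 11777 unnamed here were left out. The brightest probe set stood for a gene, 1.5-fold was the study's threshold, and no test was run. The calling code was run on simulated data, with planted changes past 1.5-fold and the same noise at every intensity. Such data cannot show how reliable the calls on these arrays are. The members, gene lists and naming rule were chosen with earlier results of these data known. By that rule all members, the listed genes past 1.5-fold and above a median, 8 genes whatever their value, and chromosome neighbours are named. The markers, COL1A1 and FAP among them, and the genes in the closing observations were named after their values were seen. The alternatives were quantile normalization, centring, other choices of probe set, a filter and a floor on dim values, no x or s probe sets (which can bind several transcripts), a pseudocount of 16 and a 2-fold threshold. Figures were drawn with matplotlib 3.10.9, and values were computed with numpy 2.4.6 and pandas 2.3.3, with scipy 1.17.1 for ranks, in Python 3.11.15.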

Additional observations from a re-analysis of the deposited data

How the results depend on the processing

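Alternatives were run for the 10 members and for the counts and medians of the lists, not for single listed genes. Neither IL1A nor IL1B turned its direction, and IL1B stayed between -1.93 and -1.70 under all alternatives that gave a value. IL1A moved most, to a log2 difference of -1.06 by the median of its probe sets, -1.16 with a pseudocount of 16, and -0.44 without x and s probe sets, which removes its bright probe set and leaves 1 member (IL1B) at least 1.5-fold lower in place of 2. Of 246 alternative values, 19 moved by more than 0.23 log2 units or, for a count, by more than 1.5 times. Smaller shifts were not counted, such as 2 in place of 3 family probe sets lower without x and s probe sets and 6 (quantile normalization) or 4 (pseudocount) in place of 5 transcription factors lower. With the 2-fold threshold, no other family ligand or receptor was lower (1 at 1.5-fold), no signalling gene and no transcription factor was higher (1 each), 1 target gene was lower (2) and 2 transcription factors were lower (5). Taking for each gene its most changed probe set, 1 inflammasome gene and 1 signalling gene were lower in place of 0, and with quantile normalization 2 signalling genes were higher in place of 1. Lower target genes numbered 1 without x and s probe sets and 0 with the pseudocount, and lower transcription factors numbered 3 by the median of probe sets and 3 without x and s probe sets. IL1RN, within 1.5-fold, moved to 0.04 by the median of its probe sets and 0.20 without x and s probe sets. The dim IL1R2 moved from -0.28 to -0.003 with the floor on dim values. Centring subtracted 0. Leaving out dim probe sets left 6 members. No paired analysis was possible because each condition has 1 array. The dim members, below both medians, are limited by signal over background.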

Other observations

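Some genes of the pathway lay just inside 1.5-fold and were picked after their values were seen. The calpains, proteases of which 1 is known to cut the IL-1 alpha precursor, were higher by their brightest probe sets. CAPN1 was read at 479 and 662 (log2 difference 0.47) and CAPN2 at 1938 and 2735 (0.50) on the empty vector and PTHLH arrays. Their other probe sets, above both medians, had log2 differences of -0.07 for CAPN1 and 0.32 for CAPN2. The receptor-proximal kinase IRAK1 was read at 2038 and 2845 (0.48), and MAP2K4, a kinase upstream of JNK, at 65.1 and 97.2 (0.58). Their other probe sets had smaller log2 differences, 0.35 for IRAK1 and 0.22 for MAP2K4. CEBPB, a transcription factor of the C/EBP family, was read at 2882 and 1942 (-0.57) by its only probe set. Any part of CEBPB in the values of IL1A and IL1B was not tested. The collagenase MMP1, an IL-1 target, was bright and read at 2579 and 3476 (0.43), opposite in sign to IL1A and IL1B.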
